A study of Caenorhabditis elegans with 2 samples.

Results

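Insulin-like peptide genes encode small secreted hormones of the worm, and 28 of them were listed in the table of poly(A) tail lengths from wild-type L4 larvae, out of 13601 listed genes. They were chosen by name, as every row whose alias is ins- followed by a number, or daf-28. NCBI's table for the WBcel235 assembly holds 40 genes with such names, and 12 of them had no row with such an alias. These were ins-2, ins-8, ins-13, ins-15, ins-19, ins-25, ins-31, ins-32, ins-34, ins-36, ins-38 (annotated as a pseudogene) and ins-39. They are called unlisted here. Many rows have a protein identifier as alias, and such rows were not searched for these genes, so their absence is not established. The lowest number of tags listed for any gene was 10, so an unlisted gene may still have been expressed below that number.

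The single group consisted of whole wild-type animals (N2 Bristol) at the last larval stage, mid-L4, with no treatment. The animals were synchronized, fed OP50 bacteria, kept at 25 °C and taken at the 29 h time point. Tails were measured by mTAIL-seq, which ligates an adapter to RNA 3′ ends that carry poly(A) and reads the length of the tail from sequencing fluorescence. A tag is 1 such tail call, made at an RNA 3′ end, so tag numbers were not divided by gene length. The labels do not say whether PCR copies were removed. The labels name 2 biological replicates, but the table pools them, so no value below has a replicate error and no test between samples was possible.

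Insulin-like peptides are made as precursors, cut by proprotein convertases, packed into dense-core vesicles and released, many of them from neurons and the intestine. They bind the receptor DAF-2, the worm's insulin and IGF receptor homolog. Some activate it and others oppose it. An active receptor signals through PI3 kinase and AKT kinases and keeps the transcription factor DAF-16, a FOXO protein, out of the nucleus, which favours reproductive growth over the arrested dauer larva. The poly(A) tail is added to an mRNA in the nucleus and is bound by poly(A)-binding proteins, and its shortening in the cytoplasm commonly precedes decay.

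The whole table held 17376490 tags, and calls ran from 5 to 231 nt. Over the 13601 genes the median tail length per gene had a median of 82 nt and quartiles of 70 and 94 nt. Of 18 marker genes fixed for muscle, intestine, hypodermis, neurons, germline, sperm and adult yolk, 17 were listed. The neuronal markers unc-119, rab-3 and snb-1 had 393, 134 and 2079 tags. The intestinal markers ges-1, asp-1 and elt-2 had 954, 75043 and 196 tags. The sample thus held RNA of neurons and intestine, from which many of these peptides are released. The unlisted marker was col-19, a collagen gene known for adult expression, while the adult yolk markers vit-2 and vit-6 were listed with 110 and 73 tags. In whole animals, fewer expressing cells and less RNA per cell cannot be told apart.

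Of the 28 insulin-like peptide genes, 14 had short median tails, and none had long ones. The 28 gene medians ran from 31 to 94 nt, with a median of 61 nt, against 82 nt for the 13573 other listed genes, which include the flp and nlp neuropeptide genes described later. The middle 50% of members lay between 49.8 and 70.5 nt, against 70 to 94 nt for the other genes, and 24 of 28 member medians were under 82 nt. A gene was called short where its median was at most 62 nt, 20 nt below the median over genes, and its 95% interval lay wholly below that median. Intervals of medians are exact order-statistic intervals of the gene's own tags and cover counting error only. The 14 short members are 50%, against 12.3% of all listed genes. No member was long by the mirrored measure, with a median of at least 102 nt, against 12.4% of all listed genes. Of the other 14 members, 4 had intervals wholly below 82 nt, 8 had intervals that included it, and ins-7 and ins-33 had intervals above it. In total, 18 member intervals lay wholly below 82 nt and 2 wholly above, against 31.6% and 26.6% of all listed genes.

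**Figure D1:**
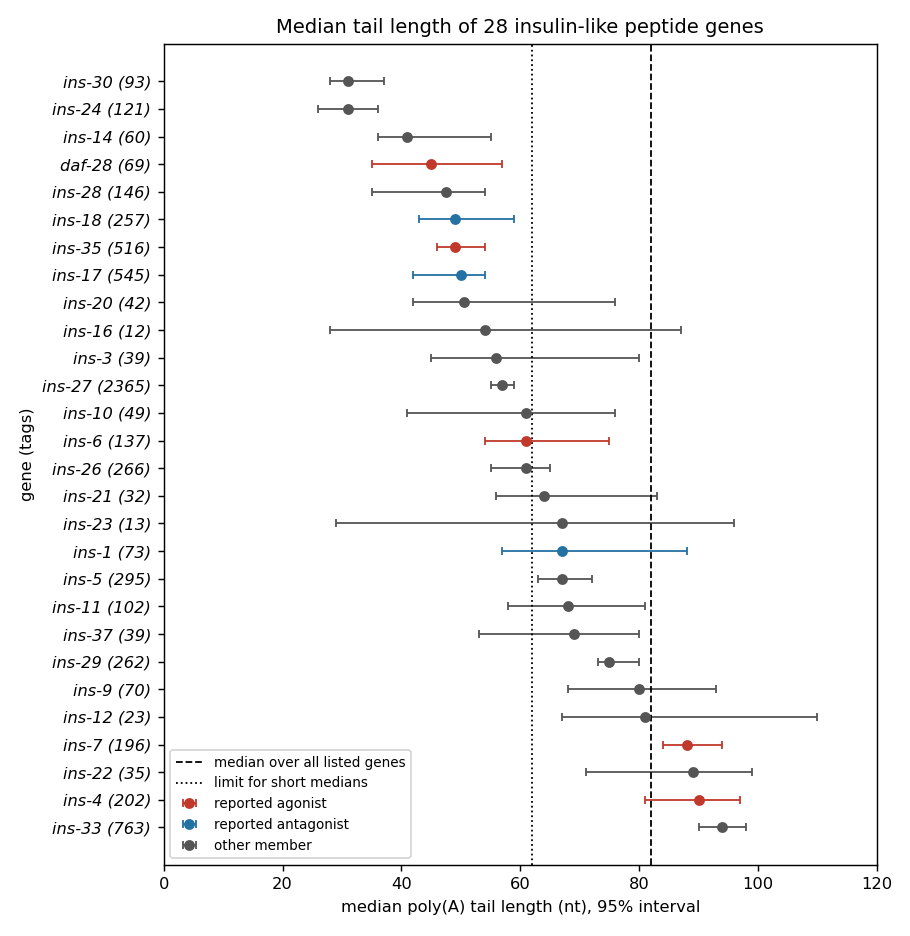
Median poly(A) tail length in nt (points) with 95% order-statistic intervals (bars, counting error only) for the 28 insulin-like peptide genes, ordered by median, with each gene's number of tags in brackets and colours for published roles. The dashed line is the median over all listed genes, 82 nt, and the dotted line the limit for short medians, 62 nt. Medians run from 31 nt for ins-30 and ins-24 to 94 nt for ins-33, and 24 of the 28 points lie left of the dashed line.

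The intervals overlapped in each of the 27 neighbouring pairs in the order of medians, many of them wide because of few tags. Overlap of intervals is not a test of a difference, and no pair was tested, so the order of neighbours is not settled. Of all 378 pairs of members, 152 (40.2%) had intervals that did not overlap, so genes far apart in the order differed by more than counting error. The same share over pairs of all listed genes was not computed. The 40.2% therefore does not show that members differ among themselves more than other genes do. The medians of ins-6, ins-10 and ins-26 lay at 61 nt, just inside the limit for short medians, and ins-21 lay just outside it at 64 nt.

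The number of tags behind these medians was small. All 28 members together held 6822 tags, or 0.0393% of the table. Single members ran from 12 tags for ins-16 to 2365 for ins-27, and 14 of 28 had at least 100 tags. The 4 most abundant, ins-27, ins-33, ins-17 and ins-35, held 61.4% of the members' tags. Interval widths broadly followed the depth, from 4 nt for ins-27 to 67 nt for ins-23.

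Short medians occurred at low and at moderate tag numbers. Among members with 10 to 99 tags, 6 of 14 were short, with a median of 62.5 nt over genes, against 8.32% and 86 nt for the other listed genes in that range. Among members with at least 100 tags, 8 of 14 were short and none was long. In all listed genes of that depth 14.3% were short and 10.5% long. Across all 13601 genes, Spearman's rho between tags and median was -0.24 and Pearson's r with log2 tags was -0.28. Across the 28 members rho was -0.03 and r was 0.01. These are correlations across genes of 1 pool, which share their libraries and are not replicates, and they are given as descriptions.

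**Figure D2:**
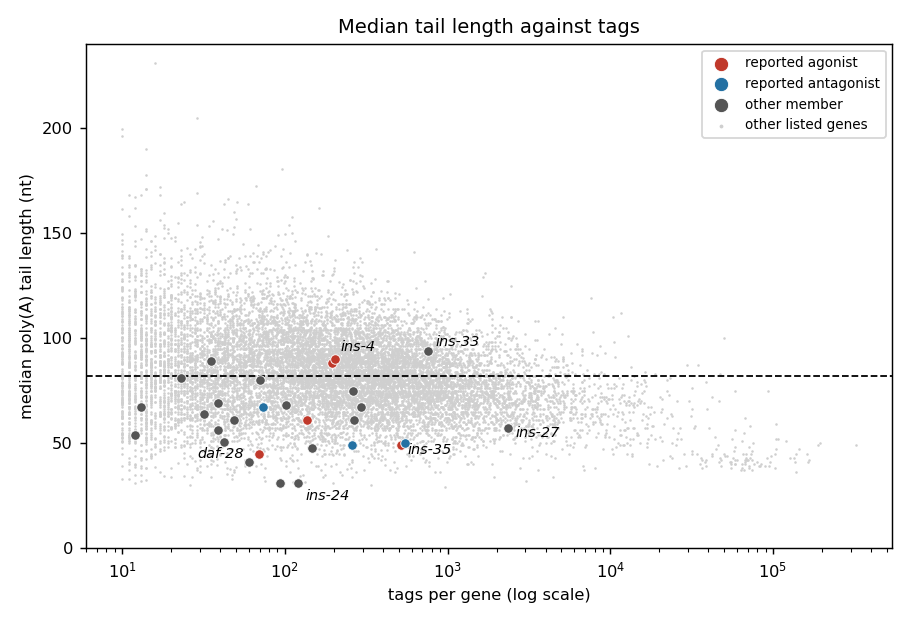
Median poly(A) tail length in nt against the number of tags per gene on a log axis, for the 28 insulin-like peptide genes (large points, coloured by published role) and the other listed genes (small grey points). The dashed line is the median over all listed genes, 82 nt. Most members lie in the lower part of the grey cloud at tag numbers from 12 to 2365. Above the line lie ins-33, ins-4, ins-22 and ins-7, at 94, 90, 89 and 88 nt.

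The peptides fixed as activators of DAF-2 did not share a tail length. This list and that of the opposing peptides were fixed from published roles, and other members may have such roles too. Of the 5 members in the activating list, 3 were short and none was long, against 12.3% and 12.4% of all listed genes. daf-28, whose dominant mutation causes dauer arrest and which is made in sensory neurons, had a median of 45 nt from 69 tags (95% interval 35 to 57 nt). Its tails ran from 10 to 127 nt, and 21.7% of them were under 30 nt (95% Wilson interval 13.6 to 32.8%). ins-35, reported to act against dauer entry, had a median of 49 nt from 516 tags (46 to 54 nt). These 2 genes were among the shortest members, with lower medians than 98% and 96.8% of listed genes.

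ins-6, which promotes growth and exit from the dauer state, had a median of 61 nt from 137 tags (54 to 75 nt). The other two activating peptides lay above the median over genes. ins-7, a gene that DAF-16 represses in the intestine, had a median of 88 nt from 196 tags (84 to 94 nt). ins-4, which acts with ins-6 and daf-28 in growth, had a median of 90 nt from 202 tags (81 to 97 nt), and its interval included 82 nt. The intervals of ins-7 and ins-4 lay wholly above those of daf-28, ins-35 and ins-6. Tails over 100 nt made up 36.7% of ins-7 tags (30.3 to 43.7%) and 40.1% of ins-4 tags (33.6 to 47%), against 7.25% in daf-28 and 10.3% in ins-35.

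The 3 peptides fixed as opposing the receptor had medians between 49 and 67 nt, and 2 of them were short, against 12.3% of all listed genes. ins-18 had a median of 49 nt from 257 tags (43 to 59 nt), and ins-17, reported to promote dauer entry, had a median of 50 nt from 545 tags (42 to 54 nt). The quartiles of ins-17 tails were 32 and 81 nt, and 15% of its tails exceeded 100 nt (12.3 to 18.3%). ins-1, the member closest to mammalian insulin in its cleavable C peptide, had a median of 67 nt from 73 tags (57 to 88 nt). Its interval included the median over genes, and 31.5% of its tails exceeded 100 nt (22 to 42.9%). The range of the opposing peptides on the fixed list fell inside that of the activating ones on theirs, 45 to 90 nt.

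Among the 20 remaining members, 9 were short (45%), against 12.3% of all listed genes. ins-27 held more tags than any other member, 2365, or 34.7% of the total, and had a median of 57 nt (55 to 59 nt). Its tails were spread widely, with quartiles of 32 and 86 nt. Of its tags, 18.3% had tails under 30 nt (16.8 to 19.9%), close to the 16% with tails over 100 nt (14.6 to 17.6%). ins-33, the next most abundant with 763 tags, stood at the other end, with the longest median of any member, 94 nt (90 to 98 nt). Only 4.98% of ins-33 tails were under 30 nt (3.65 to 6.76%), and 42.7% exceeded 100 nt (39.3 to 46.3%). The 2 most abundant insulin genes of the L4 animal therefore differed by 37 nt in median, far more than counting error.

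The shortest members were ins-30 and ins-24, both with a median of 31 nt. ins-30 had 93 tags (interval 28 to 37 nt) and ins-24 had 121 tags (26 to 36 nt). Both medians were lower than those of 99.9% of listed genes. Of all their tails, those under 30 nt were 47.3% in ins-30 (37.5 to 57.4%) and 47.1% in ins-24 (38.4 to 56%). Tails under 20 nt were 32.2% in ins-24 (24.6 to 41%) and 16.1% in ins-30 (10 to 24.9%), with intervals that just overlapped. Both also had a few long tails, up to 231 nt in ins-24 and 165 nt in ins-30.

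The next shortest in this class were ins-14, with 41 nt from 60 tags (36 to 55 nt), and ins-28, with 47.5 nt from 146 tags (35 to 54 nt). ins-26 had a median of 61 nt from 266 tags (55 to 65 nt). Of its tags, 8, or 3.01%, stood at the longest callable value, 231 nt, which held 0.306% of all tags of the table. ins-5 had a median of 67 nt from 295 tags (63 to 72 nt), and ins-11, reported to signal from the intestine to neurons in pathogen avoidance, had 68 nt from 102 tags (58 to 81 nt). ins-11 carried more tails under 20 nt than ins-5, 13.7% (8.36 to 21.7%) against 0.339% (0.0599 to 1.89%). Their shares over 100 nt, 27.5% (19.7 to 36.8%) and 21.7% (17.4 to 26.7%), had overlapping intervals. ins-29 had a median of 75 nt from 262 tags (73 to 80 nt), below the median over genes but not short by the 20 nt measure.

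The other members each had fewer than 100 tags. ins-20, ins-3 and ins-10 were short, with medians of 50.5, 56 and 61 nt from 42, 39 and 49 tags. ins-37 had 69 nt from 39 tags with an interval below 82 nt (53 to 80 nt). In the WBcel235 annotation ins-10 overlaps the coding gene vps-39, and ins-37 overlaps F08G2.17, an ncRNA gene, and F08G2.9, an snRNA gene. Strands were not compared. Whether some tags of ins-10 and ins-37 belong to the overlapping genes was not tested, so these tags are uncertain. ins-16 had a median of 54 nt and ins-23 of 67 nt, from 12 and 13 tags, with intervals of 28 to 87 nt and 29 to 96 nt. ins-21, ins-9, ins-12 and ins-22, with 23 to 70 tags, had medians of 64, 80, 81 and 89 nt, and their intervals all included 82 nt. At these depths a difference of 20 nt from the median over genes was often not detectable.

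**Figure D3:**
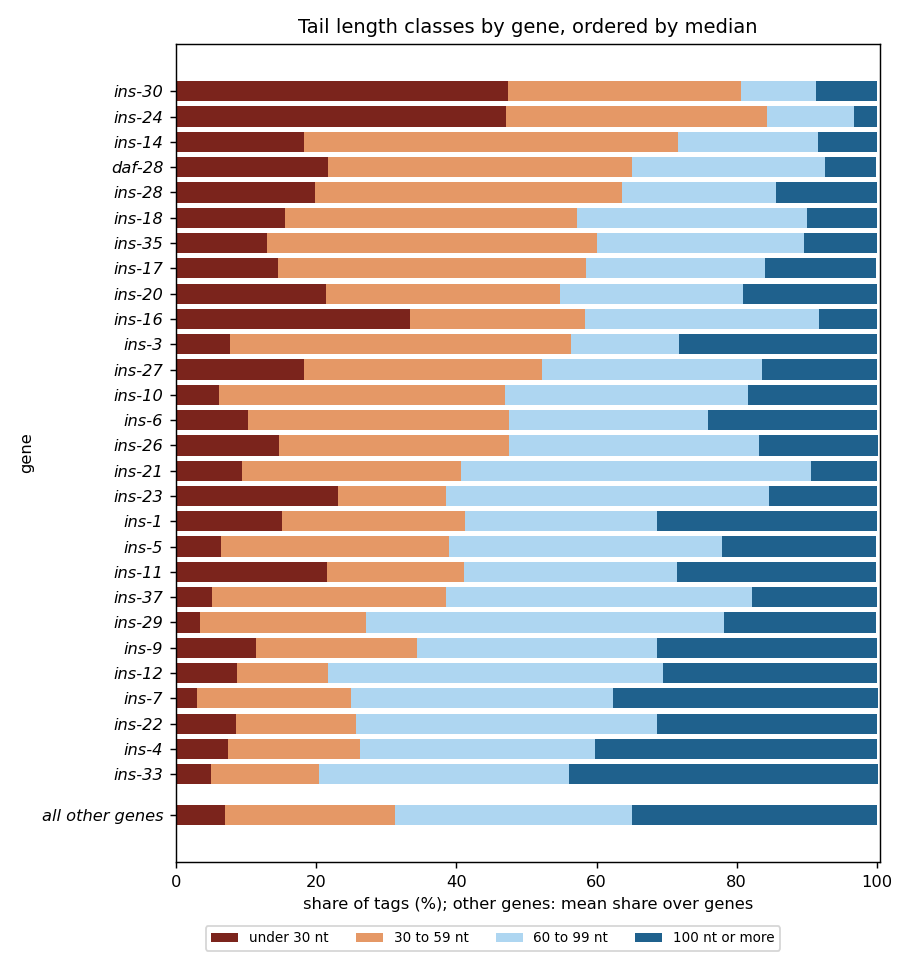
Share of each gene's tags in 4 classes of tail length, for the 28 insulin-like peptide genes ordered by median from the shortest down, with the mean shares over all other listed genes in the lowest bar. The class under 30 nt takes 47.3% of ins-30 and 47.1% of ins-24, and 4.98% of ins-33. The class of 100 nt or more is largest in ins-33, ins-4 and ins-7.

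The members held more very short tails than the other peptide families. With each gene given equal weight, 15.6% of member tails were under 30 nt. The share was 9.03% in the 30 listed flp genes, which encode FMRFamide-like neuropeptides. In the 74 listed nlp genes, which encode other neuropeptide-like proteins, it was 9.06%. In the 13573 other listed genes, flp and nlp genes included, it was 6.99%. The mean share under 20 nt was 4.19% in members, against 1.05% in flp genes, 1.17% in nlp genes and 2.1% in the other genes. A few members carried much of that mean, with 32.2% in ins-24, 16.1% in ins-30 and 13.7% in ins-11. The median share under 20 nt was 2.27% over members, against 1.49% over the other genes, and the mean was 2.79% without ins-24 and its neighbours. In 23 of 28 members the share under 30 nt was above the median over all listed genes, 6.15%. The Wilson interval lay wholly above that value in 16 of 28 members, against 23.9% of all listed genes, and wholly below it in 0 of 28, against 14.3% of all listed genes. Without the 6 listed members of the run that holds ins-24, itself included and described below, the equal-weight share was 13%.

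From about 40 nt up, the members and the nlp genes had nearly the same distribution. Tails of up to 40 nt made up 31.2% in members, 36.4% in flp genes and 31.1% in nlp genes, against 15.7% in the other genes. Tails of up to 100 nt made up 80.1%, 79.6% in nlp genes and 65.8% in the other genes. Members, flp genes and nlp genes thus had fewer tails over 100 nt than the other genes, 19.9%, 18.3% and 20.4% against 34.2%. At 30 to 39 nt the members had fewer tails than the flp genes, 14.4% against 26.2%. The smoothed distribution had its maximum at 31 nt in members and at 32 nt in both neuropeptide families, against 82 nt in the other genes.

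**Figure D4:**
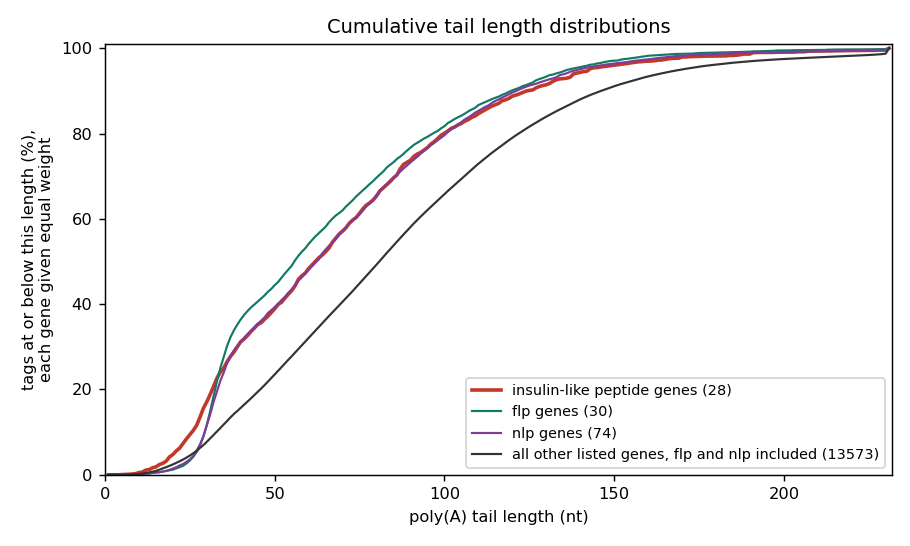
Cumulative distribution of poly(A) tail length, as the percentage of tags at or below each length in nt, with each gene given equal weight. Curves show the 28 insulin-like peptide genes, 30 flp genes, 74 nlp genes and all 13573 other listed genes. The last include the flp and nlp genes. At 29 nt the member curve stands at 15.6%, above both neuropeptide families, and by 40 nt it meets the nlp curve at about 31%.

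As families of genes, the 3 peptide classes overlapped. Taken over genes, the median was 61 nt in members, 56.5 nt in flp genes and 62 nt in nlp genes. Short genes were 14 of 28 members, 20 of 30 flp genes and 35 of 74 nlp genes, against 12.3% of all listed genes. The families ran from 35 to 85 nt (flp) and from 34 to 106 nt (nlp), so ins-24 and ins-30 had lower medians than any listed gene of either. Their intervals, 26 to 36 nt and 28 to 37 nt, nevertheless overlapped those of flp-25 and nlp-80, given next. With at least 100 tags, flp genes ran from flp-25 at 35 nt (34 to 38 nt) to flp-17 at 85 nt, and the most abundant, flp-1, had 59.5 nt from 2568 tags. The nlp genes ran from nlp-80 at 34 nt (32 to 35 nt) to nlp-25 at 97 nt, with nlp-24 at 67 nt from 17153 tags. Genes are not replicates, and no test of these family differences was made.

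Weighting by tags changes how the members stand against the rest of the table. The median over all 6822 member tags was 62 nt (61 to 63 nt), 57 nt in flp tags and 73 nt in nlp tags, against 58 nt over the tags of all other genes. By tags the members were thus not shorter than the rest. There, 2050 genes with at least 1000 tags each held 14712174 of the 17369668 tags and had a tag median of 55 nt. Tails under 30 nt were 14.5% of member tags (13.7 to 15.3%), against 8.95% of flp tags (8.53 to 9.38%), 8.22% of nlp tags (8.01 to 8.44%) and 9.33% of tags in the rest. Tails over 100 nt were 20.3% of member tags (19.3 to 21.3%), against 16.2% in the rest. Without ins-27 the member tag median was 66 nt, with 12.5% of tags under 30 nt (11.5 to 13.5%).

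Many insulin-like peptide genes lie next to each other, and the medians of neighbours were far apart in some pairs and alike in others. In the WBcel235 annotation, ins-28, ins-29, ins-25, ins-27, ins-24, ins-30 and ins-26 follow each other with at most 1 other coding gene between neighbours. The 6 listed genes of this run held 3253 tags, 47.7% of the members' total. All 6 had intervals wholly below 82 nt, against 31.6% of all listed genes, and 5 were short, against 12.3%. Their medians ran from 31 to 75 nt. The interval of ins-29 lay wholly above those of its 5 listed neighbours, while ins-24 and ins-30, adjacent to each other, had the same median. Among the 22 members outside this run 9 were short (40.9%), against 12.3% of all listed genes, their median was 65.5 nt, and 10.6% of their tags had tails under 30 nt (9.6 to 11.6%), against 18.8% in the run (17.5 to 20.2%).

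A second run holds ins-2, ins-3, ins-4, ins-5, ins-6 and ins-20, with ins-2 unlisted. The 5 listed genes had medians from 50.5 to 90 nt and 3 were short, against 12.3% of all listed genes. The interval of ins-4, 81 to 97 nt, lay wholly above those of the 4 others, of which the highest reached 80 nt in ins-3. In another run, of ins-21, ins-22 and ins-23, the medians of 64, 89 and 67 nt had overlapping intervals at 32, 35 and 13 tags. ins-11 and ins-12, also neighbours, had 68 and 81 nt with overlapping intervals. Related neighbouring genes can share sequence, and whether tags were divided correctly among them was not tested.

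**Figure D5:**
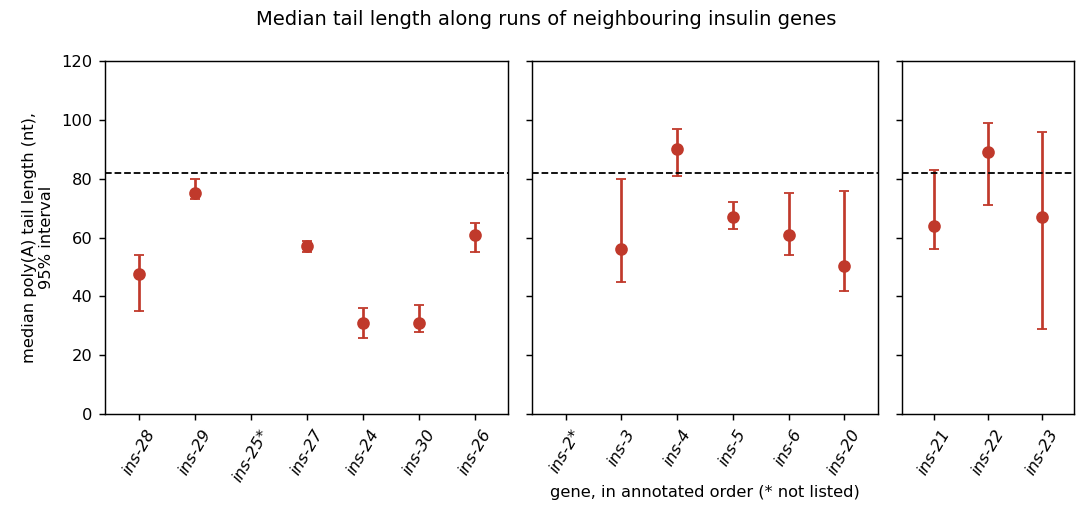
Median poly(A) tail length in nt (points) with 95% order-statistic intervals along 3 runs of neighbouring insulin-like peptide genes, in annotated order, with unlisted genes marked by an asterisk. The dashed line is the median over all listed genes, 82 nt. In the left run ins-29, at 75 nt, stands above its neighbours and ins-24 and ins-30 lie at 31 nt; in the middle run ins-4, at 90 nt, stands above its neighbours.

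Genes of the receptor pathway did not have short tails as a list. All 13 fixed genes from the receptor to DAF-16 were listed, with a median of 82 nt over genes. Of these, 2 were short and 1 was long, which is close to the 12.3% and 12.4% of all listed genes. The receptor gene daf-2 had only 21 tags and a median of 70 nt (50 to 116 nt). daf-16, the FOXO factor, had 93 nt (86 to 100 nt), and the PI3 kinase gene age-1 had 82 nt (70 to 91 nt). aap-1, the adaptor subunit of that kinase, had 73 nt, and ist-1, an insulin receptor substrate homolog, had 96 nt. The AKT kinase genes akt-1 and akt-2 had 79 and 95 nt, and pdk-1, their activating kinase, was long at 111 nt (102 to 123 nt). The kinase gene sgk-1 had 82 nt, and pptr-1, a regulatory subunit of the phosphatase PP2A, had 89 nt. The short genes included par-5, a 14-3-3 protein gene, at 45 nt (45 to 46 nt), while ftt-2, the other 14-3-3 gene, had 73 nt (72 to 74 nt).

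Genes that process and release peptides had medians from 40 nt up to that of kpc-1. Of 10 fixed genes, 3 were short and 1 was long, against 12.3% and 12.4% of all listed genes, and the median over the 10 was 92 nt. The short ones were egl-21, a carboxypeptidase gene, at 40 nt (38 to 43 nt), sbt-1, which encodes the 7B2 chaperone of the convertase, at 41 nt (39 to 45 nt), and egl-3, a convertase gene, at 56 nt (54 to 58 nt). The furin-like convertase gene kpc-1 was long, with an interval of 114 to 125 nt, and the convertase genes aex-5 and bli-4 had 97 and 94 nt. The vesicle genes ida-1, hid-1 and unc-31 had 90, 98 and 105 nt, the last from 17 tags, and asna-1, which promotes insulin secretion, had 66 nt. Of 4 fixed DAF-16 target genes, 3 were listed, sod-3 at 53.5 nt (43 to 69 nt), which was short, mtl-1 at 96.5 nt and dod-3 at 85 nt. The unlisted one was hsp-12.6.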

How the data were processed

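mTAIL-seq libraries of 2 replicates of wild-type L4 animals were analysed from 1 deposited table. Per the labels' protocols, RNase T1 fragments of 250 to 1000 nt were sequenced on a MiSeq and tails were called by the authors with tailseeker2. STAR and bedtools are named in the submitters' processing notes without a role. The sources used here do not give their versions, the genome build or the treatment of PCR copies. The deposited counts are numbers of tail calls per gene over both replicates, not normalized, so depth per replicate is unknown. Recomputing count, mean, median and SD from each gene's list of calls gave 0 differing genes. PCR copies, if present, would make the intervals too narrow, and all intervals cover counting error only.

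Each gene's median was given an exact 95% order-statistic interval, and shares a 95% Wilson interval (Python 3.11.15, SciPy 1.17.1, pandas 2.3.3). Only the median intervals were tested on simulated data. These were drawn from real tails with the shortest and longest left out, and whole sets were then shifted by a fixed length. They therefore did not hold the mix of very short and longer tails that single genes had. False calls of short or long medians were not checked there at the lowest tag numbers. The Wilson intervals were not tested in this way. All genes with at least 10 tags entered. Symbols came from the table or, for its protein identifiers, from NCBI's WBcel235 table, which may differ from the authors' build and is used for names, neighbours and overlaps only. Members were matched on the deposited alias alone, while flp and nlp genes were matched on symbols from both sources. Runs of neighbours allow up to 8 coding genes between members. Named genes were all members, the listed genes of a fixed pathway list, and the most abundant, shortest and longest flp and nlp gene with at least 100 tags. The members, the lists and the 20 nt size were chosen with earlier results of these data known. The values of 1 listed gene of the pathway list, which enters the counts, are not reported here. Alternatives varied the size, the centre, the interval level, the tag minimum, the summary per gene, the shortest and longest tails and the weighting.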

Additional observations from a re-analysis of the deposited data

How the results depend on the processing

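Of 52 alternative values, 30 stayed within the limits set for them (counts within 1.5 times, other values within their 95% interval). The number of short members was 14 of 28, against 12.3% of all listed genes. It was 17 with a size of 10 nt (25% of all), 18 with no minimum size (31.6%), 12 with 99% intervals (11.5%), 11 of 19 with at least 50 tags (12.4%) and 11 with means in place of medians (9.62%). It was 6 of 14 with at least 100 tags (11.8%), where the centre of 80 nt put the members at 61 nt outside the limit, and 9 of 22 without the ins-24 run (12.2%), an alternative chosen after seeing the data. Long members were 1 with a size of 10 nt and 2 with no minimum size, against 21.9% and 26.6% of all listed genes. Centred on the median over tags, 58 nt, 2 members were short and 6 long, against 0.426% and 55.8% of all listed genes.

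With means in place of medians the family values were 70.4 nt in members, 65.7 nt in flp genes, 69.7 nt in nlp genes and 86 nt in all other genes; those of the other genes were 81 and 80 nt with at least 50 and 100 tags. The member tag median was 64 nt without tails under 20 nt, 66 nt without ins-27 and 68 nt without the ins-24 run. The share under 30 nt was 12.2% without tails under 20 nt, 15.6% with equal weight per gene, 12.5% without ins-27, 10.6% without the ins-24 run and 13% with equal weight per gene and without that run. The share over 100 nt was 22.5% without ins-27 and 24.5% without the ins-24 run. Leaving out a replicate was not run, because the table pools both. Counts of pathway genes, computed only for the 2 higher tag minimums and for means, stayed within 1.5 times.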
